A study of Homo sapiens with 27 samples.

Results

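H358, an established line of human non-small cell lung cancer, was treated with cisplatin (3 libraries) or with oxaliplatin (3 libraries), both at 100 µM, and the 3′ ends of poly(A)+ RNA from whole cells were counted. These 6 libraries of the 27 in the series were chosen by their titles and are set against each other here. A further 3 H358 libraries, from whole cells given the vehicle DMSO, are the untreated level. The remaining 18 libraries come from A549 cytosol, A549R cytosol and A549 heavy polysomes, each with cisplatin at 100 µM and with DMSO, and are used only to follow the H358 peaks in other cells and to judge the kinds of list. The study also set cisplatin-resistant against sensitive cells, and the labels do not say which of these lines is resistant. No exposure time is given in the sources used here, and the labels do not say whether libraries of a group came from separate cultures, so that p-values measure the spread between these libraries. H358 is 1 cell line, and its epithelial identity was not checked because the lists do not pair peaks with genes.

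Cisplatin and oxaliplatin are platinum(II) compounds that bind DNA, mostly at neighbouring purines, and the adducts stall both DNA polymerases and elongating RNA polymerase II. They differ in the ligands on the platinum. Cisplatin carries ammine groups and chloride leaving groups, whereas oxaliplatin carries a diaminocyclohexane ring and an oxalate leaving group. Cisplatin is a standard drug for lung cancer, and oxaliplatin is used mainly in colorectal cancer. The 3′ end of a messenger RNA is made by cleavage and addition of a poly(A) tail, and many human genes have several such ends. An end inside the gene, often in an intron, gives a short transcript, and the end of the last exon gives the full-length one. A 3′ end count therefore reads both how much of a transcript there is and where it stops.

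Each library has a deposited list of peaks, which are short genomic stretches where reads pile up at a 3′ end, with a strand and a whole-number read count. Peaks that overlapped on a strand in the 6 lists were joined, which gave 102103 merged peaks, and the 15208 that stood in all 6 lists were tested. A further 4922 stood in 5 of the 6 lists, 4315 of them missing from a cisplatin list and the rest from an oxaliplatin list. The median of the smallest count per peak was 17 in the peaks listed in all 6 and 6 in those listed in 5. Positions are given in hg19, counted from 1, and peaks are named by position alone, because no annotation of that build was used here.

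The lists of the drugs were of different kinds, and this touches every comparison between them. Peaks are numbered within a list with gaps. The cisplatin lists held 73.1 to 73.8% of their numbers, the oxaliplatin lists 39.9 to 42.3% and the DMSO lists 78.2 to 79.4%, so that cisplatin and DMSO had long lists and oxaliplatin short ones. A peak that an oxaliplatin list lacks is therefore not a count of 0, and the kind of list and the drug cannot be told apart. Total listed counts were 3765404 to 6542394 with cisplatin, 4921873 to 6036451 with oxaliplatin and 5248796 to 9058438 with DMSO. The tested peaks held 60.3 to 66% of the cisplatin counts, 92.9 to 93.5% of the oxaliplatin counts and 69.3 to 70.6% of the DMSO counts. Levels are given in CPM, the count relative to all counts of the library in tested peaks, after scaling by TMM, which assumes that most peaks do not differ. Cisplatin against DMSO lies within long lists, so these values are given beside each result.

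Many transcript ends listed with both drugs differed in level between the cisplatin and the oxaliplatin libraries. With cisplatin, 1847 peaks were higher and 1550 lower than with oxaliplatin at an adjusted p under 0.05, 22.3% of the 15208 tested, or 12.1% higher and 10.2% lower. In 18.4% of tested peaks every cisplatin library lay above every oxaliplatin library, and in 19.2% every one lay below. The called peaks that were higher had a median log2 difference of 1.33 and the lower ones of -1.14, and the log2 differences of the called peaks reached 7.11 upward and -3.18 downward. The median over all tested peaks was 0.01. The 95% interval of the difference lay within a 2-fold change either way for 5857 peaks (38.5%), and for the others it reached beyond 2-fold. The split of calls depended on what the libraries were scaled by. With library sizes from all listed counts and no TMM factors, 555 peaks were higher and 8909 lower, and with every merged peak tested and absent peaks as 0, 26867 were higher and 3439 lower. The first of these scalings moves every log2 difference by about -0.93. Differences below are relative to the median of the tested peaks.

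**Figure D1:**
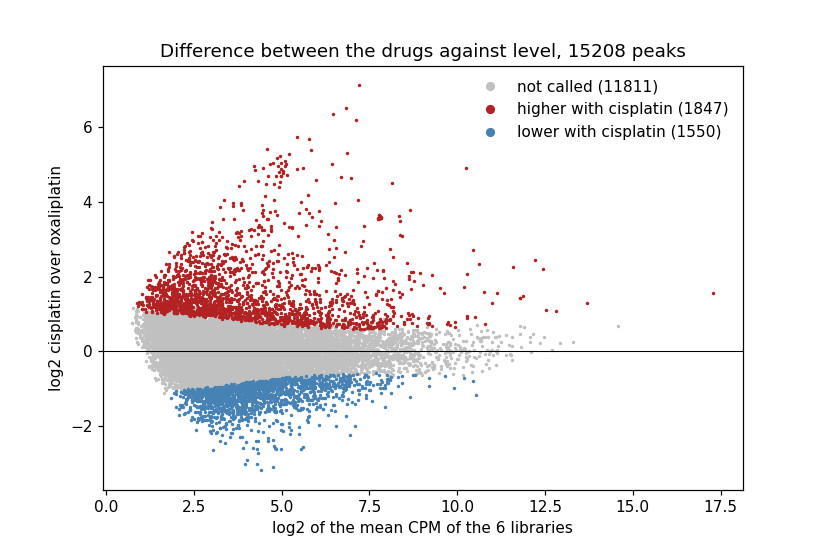
Each point is 1 of the 15208 tested peaks, with the log2 of its mean CPM over the 6 libraries on the x axis and its log2 difference, cisplatin over oxaliplatin, on the y axis. Red points are the 1847 peaks called higher with cisplatin and blue points the 1550 called lower; the red points reach a log2 difference of 7.11 and the blue points -3.18.

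Each drug was also set against the same 3 DMSO libraries, so the values of the following comparisons are given side by side. Over the 14550 peaks listed in all 9 H358 libraries, cisplatin had 1706 peaks above DMSO and 2050 below it (25.8% called), and oxaliplatin had 174 above and 540 below (4.91% called). The medians that follow cover all called peaks. They are log2 ratios of mean CPM with 0.5 added and unlisted DMSO peaks as 0. Of the 1847 peaks called higher with cisplatin than with oxaliplatin, 1616 were listed in all 3 DMSO libraries, and of the 1550 called lower, 1534. The peaks called higher had a median of 1.17 for cisplatin over DMSO and of -0.02 for oxaliplatin over DMSO. Those called lower had medians of -1.04 for cisplatin and 0.12 for oxaliplatin. Over all tested peaks the medians were -0.02 and 0.02. In the middle of both groups of called peaks, then, the oxaliplatin libraries lay near the DMSO level and the cisplatin libraries away from it. The same cisplatin libraries entered the choice of these peaks and their cisplatin over DMSO values.

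The 12 peaks with the largest excess in cisplatin were 5.18 to 7.11 log2 units above oxaliplatin, and the highest oxaliplatin library lay below the lowest cisplatin library in each. The first was chr6:52860418-52860779 on the plus strand. It had 169.8, 375 and 335 CPM with cisplatin, against 2.29, 1.25 and 2.74 CPM with oxaliplatin and 2.41 CPM in 1 DMSO library and no listing in the other 2. It rose with cisplatin (log2 difference 7.11 ± 0.37 (SE), adjusted p = 2.95e-12), and its nearest tested neighbours on the strand, 309 kb upstream and 102 kb downstream, were not called (adjusted p = 0.12 and 0.314). In the libraries without cisplatin that list it, the end had only a few CPM. The second, chr20:26188996-26189627 on the minus strand, had 104, 220.3 and 356 CPM with cisplatin, against 3.7, 2.71 and 1.29 CPM with oxaliplatin and 14.8, 29.5 and 55 CPM with DMSO (log2 difference 6.50 ± 0.43 (SE), adjusted p = 1.77e-10). Here the order was cisplatin, DMSO, oxaliplatin, with no overlap between the groups. A tested peak 140 bases upstream of it was also higher with cisplatin, by 4.06 ± 0.46 log2 units (SE).

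Several of the strongest peaks had low levels wherever they were listed without cisplatin. The peak chr2:175422685-175422800 (minus strand, 116 bases wide) had 26.1, 53.5 and 61.9 CPM with cisplatin, against 0.88, 1.67 and 0.806 CPM with oxaliplatin and 1.28 CPM in 1 DMSO library and no listing in the other 2. The log2 difference between the drugs was 5.42 ± 0.42 (SE), and its nearest tested neighbours on the strand lay 476 kb upstream and 209 kb downstream. The peak chr1:10359023-10359170 (plus strand) had 29.3, 61.4 and 80.2 CPM with cisplatin, against 1.41, 1.87 and 1.45 CPM with oxaliplatin and 0.867 and 1.28 CPM in 2 DMSO libraries and no listing in the other (log2 difference 5.18 ± 0.40 (SE), adjusted p = 1.23e-09). In both, the oxaliplatin libraries and the DMSO libraries that list the peak lay together at low levels, and the cisplatin libraries stood apart. A broader peak, chr17:79892819-79894400 (minus strand, 1582 bases), had 86.9, 163 and 83.9 CPM with cisplatin, against 2.29, 1.25 and 4.35 CPM with oxaliplatin and 2.41, 3.9 and 6.42 CPM with DMSO. Cisplatin over DMSO was 4.78 log2 units there and oxaliplatin over DMSO -0.59 (adjusted p = 0.478). The tested peak 2011 bases downstream of it was not called, with 176 CPM with cisplatin and 171 CPM with oxaliplatin (log2 difference 0.07 ± 0.22, SE).

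Another 5 of the 12 were split by list kind, judged in the A549 and A549R libraries alone, with unlisted peaks as 0 and 0.5 CPM added. On that scale they were over 2-fold lower in short lists than in long ones. This held with cisplatin and with DMSO, both in cytosol and in polysomes. In polysomes the only short list of each treatment was replicate 3, so list kind and replicate cannot be told apart there. At chr17:41399657-41401090 and chr11:129902685-129903146 no short A549 list held the peak, which is an absence and not a measured level. They are chr17:41399657-41401090 and chr4:106407066-106407554 on the plus strand and chr20:2446029-2446478, chr2:231589452-231590167 and chr11:129902685-129903146 on the minus strand. The peak chr20:2446029-2446478 had 187, 329 and 302 CPM with cisplatin, against 3.7, 2.91 and 4.68 CPM with oxaliplatin and 74.4, 100.2 and 94.6 CPM with DMSO. In the A549 and A549R libraries with DMSO it averaged 29.3 ± 3.88 CPM in the long A549R lists and 6.73 ± 1.26 CPM in the short A549 lists (SD, n = 3 each). Those lists differ in cell line as well as in kind. Between H358 lists of the long kind, cisplatin lay above DMSO by 1.63 log2 units. The peak chr4:106407066-106407554 had 85.4, 101 and 68.9 CPM with cisplatin, against 1.58, 1.67 and 1.61 CPM with oxaliplatin and 138, 177 and 123 CPM with DMSO. The peak chr2:231589452-231590167 had 85.7, 139.5 and 99.8 CPM with cisplatin, against 2.82, 2.29 and 1.29 CPM with oxaliplatin and 125, 101 and 122 CPM with DMSO. Oxaliplatin was far below both other groups at each, and cisplatin lay below DMSO without overlap at the first and overlapped it at the second. Cisplatin over DMSO was -0.76 (adjusted p = 0.0181) and -0.08 (adjusted p = 0.848) log2 units. The peaks chr17:41399657-41401090 and chr11:129902685-129903146 were 2.81 and 0.80 log2 units above DMSO with cisplatin. Over all tested peaks, 51 were split by list kind in one direction or the other, 23 of them among those called higher with cisplatin and 4 among those called lower. The part of list kind in their differences between the drugs was not tested.

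**Figure D2:**
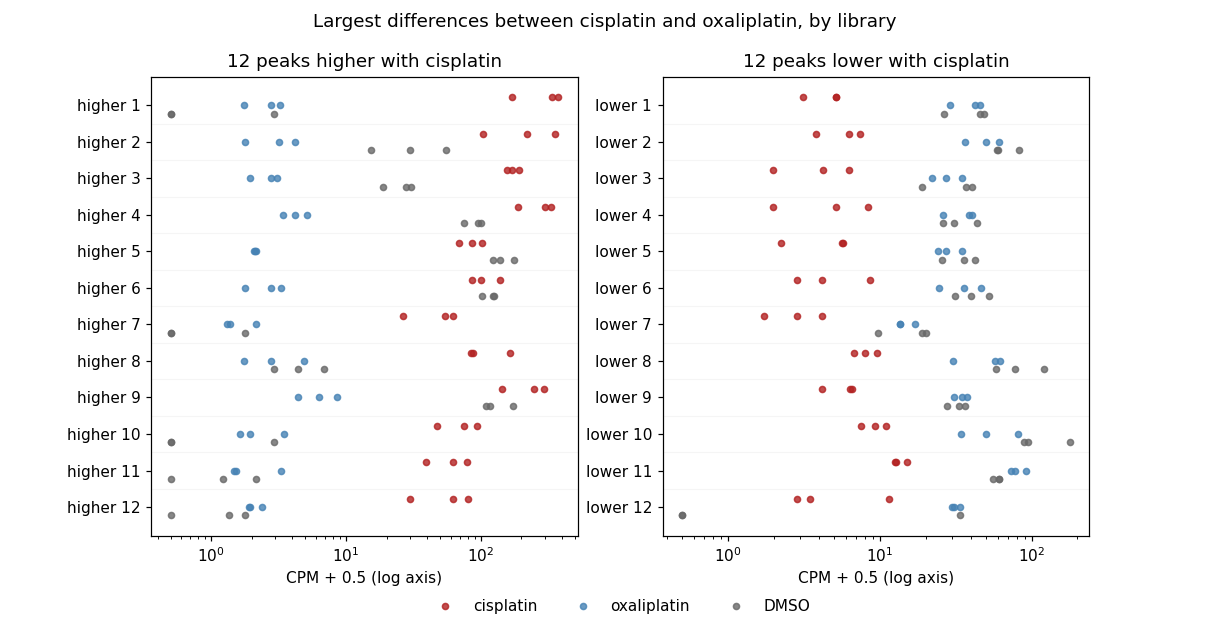
CPM plus 0.5 on a log axis for the 12 peaks with the largest excess (left) and the 12 with the largest deficit (right) in cisplatin, in order of size from top to bottom; each point is 1 library, with cisplatin in red, oxaliplatin in blue and DMSO in grey, and an unlisted peak drawn at 0.5. On the left cisplatin lies above oxaliplatin in all 12 rows while DMSO lies with oxaliplatin in some rows and with cisplatin in others; on the right oxaliplatin lies with DMSO in most rows.

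The peaks ranked 10 and 11 belong to a regular row of ends on the minus strand of chromosome 1. Between 228746001 and 228781938 the lists held 17 merged peaks, each starting 2211 to 2263 bases after the one before (median 2234). Summed over the row, with unlisted peaks as 0, the libraries had 688, 1235 and 1271 CPM with cisplatin, against 63, 23.5 and 11.8 CPM with oxaliplatin and 28.5, 7.51 and 1.8 CPM with DMSO. Every cisplatin library listed all 17 peaks, and cisplatin lay far above the other groups at each of them. Of the row, 10 peaks were listed in all 6 libraries, and all 10 rose with cisplatin, by 4.40 to 5.27 log2 units (adjusted p at most 3.90e-08). Over the 18 A549 and A549R libraries the whole row had 93 reads and no peak more than 7. An even row of nearly equal peaks can be a repeated sequence, in which case an aligner cannot place its reads on 1 copy, so the levels of single peaks are uncertain. No genome of the build was used here to check this.

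**Figure D3:**
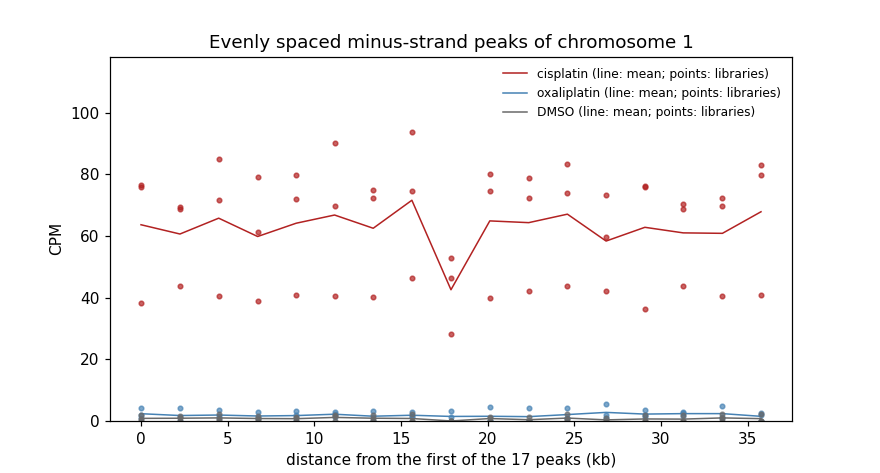
CPM (y axis) of the 17 evenly spaced minus-strand peaks of chromosome 1 against the distance of each from the first (x axis, kb), with 1 point per library and a line at each group's mean; cisplatin is red, oxaliplatin blue and DMSO grey. Cisplatin stays far above oxaliplatin and DMSO at each of the 17 peaks.

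Peaks that were higher with cisplatin also stood together at other places. Tested peaks fell in 6417 genome windows of 100 kb, of which 3435 held 2 or more. Windows with at least 6 peaks called the same way numbered 16, a selection made after the values were seen. These calls were higher with cisplatin in all 16, and the window at chr5:134241166-134264203 also had 1 lower call. At chr17:22018562-22032009, 13 of the 14 tested peaks of the window were higher. With unlisted DMSO peaks as 0, its tested peaks summed to 6369 ± 2035 CPM with cisplatin, against 1507 ± 458 CPM with oxaliplatin and 1003 ± 123 CPM with DMSO (SD, n = 3 each). On chromosome 19, 11 of 11 peaks at chr19:50601083-50643576 on the minus strand and 10 of 10 at chr19:48410933-48459107 on the plus strand were higher. The first of these windows summed to 13984 ± 2981 CPM with cisplatin, against 4326 ± 672 CPM with oxaliplatin and 2892 ± 87.4 CPM with DMSO (SD, n = 3 each). The second summed to 11371 ± 2433 CPM with cisplatin, against 3179 ± 515 CPM with oxaliplatin and 2156 ± 145 CPM with DMSO (SD, n = 3 each). In both, the mean was highest with cisplatin and lowest with DMSO. A window at chr1:149804897-149895626 with 9 of 11 peaks higher had another order, with 1190 ± 82.4 CPM with cisplatin, against 355 ± 60.2 CPM with oxaliplatin and 476 ± 93.6 CPM with DMSO (SD, n = 3 each), so oxaliplatin lay below DMSO on average. At chr11:65207786-65273590, all 8 plus-strand peaks were higher, with summed levels of 757 ± 102 CPM with cisplatin, against 162 ± 51.2 CPM with oxaliplatin and 217 ± 91.1 CPM with DMSO (SD, n = 3 each), of which 1 peak held 83.3% over the 6 drug libraries. A compact cluster at chr9:5092123-5098399, 6277 bases long, had 6 of 6 peaks higher, by 1.78 to 2.96 log2 units. Whether reads of these windows could also be placed elsewhere, the mitochondrial genome included, was not checked. Of 3771 neighbours within 3 kb on a strand, 373 had both members called, 249 both higher, 120 both lower and 4 in opposite directions. The other neighbours had at most 1 member called, as at chr4:106407066-106407554, whose uncalled neighbour 13 bases upstream had a log2 difference of 0.03.

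The ends that were lower with cisplatin looked different. The 12 with the largest deficit had log2 differences of -2.59 to -3.18. The first, chr5:159399611-159400027 on the plus strand, had 4.68, 2.62 and 4.69 CPM with cisplatin, against 41.7, 28.3 and 45 CPM with oxaliplatin and 45.2, 25.9 and 48.3 CPM with DMSO (log2 difference -3.18 ± 0.34 (SE), adjusted p = 2.62e-07). The second, chr8:118811599-118812116 on the minus strand, had 6.89, 5.77 and 3.28 CPM with cisplatin, against 60.0, 35.8 and 49.2 CPM with oxaliplatin and 82.3, 59.5 and 58.9 CPM with DMSO (log2 difference -3.10 ± 0.33 (SE), adjusted p = 2.22e-07). In both, the oxaliplatin libraries overlapped those with DMSO or lay close to them, and the cisplatin libraries stood below. The third, chr3:99879264-99879346 on the plus strand, had 1.48, 5.77 and 3.75 CPM with cisplatin, against 21.5, 34.1 and 26.9 CPM with oxaliplatin and 18.6, 39.9 and 36.5 CPM with DMSO. Its next tested neighbour on the strand, 17.8 kb downstream, fell as well, by 2.39 ± 0.36 log2 units (SE).

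The next members followed the same pattern. The peak chr2:31133329-31133655 (minus strand) had 1.48, 7.87 and 4.69 CPM with cisplatin, against 38.2, 25.4 and 39.8 CPM with oxaliplatin and 43.1, 30.5 and 25.4 CPM with DMSO. The peak chr1:50906931-50907200 (minus strand) had 1.72, 5.25 and 5.16 CPM with cisplatin, against 34.5, 23.7 and 26.9 CPM with oxaliplatin and 35.6, 25.1 and 42.1 CPM with DMSO. The peak chr9:37919541-37920008 (minus strand) had 8.12, 3.67 and 2.34 CPM with cisplatin, against 45.9, 23.9 and 35.2 CPM with oxaliplatin and 51.7, 30.9 and 39.1 CPM with DMSO. Cisplatin was the low group in each of these, without overlap with oxaliplatin or DMSO. Of the 12, 11 were listed in all 3 DMSO libraries. In all 11 every cisplatin library lay below every DMSO library, as it did in 22% of all peaks listed in the 9 H358 libraries, and in 9 the oxaliplatin range overlapped the DMSO range, as in 76.7% of all. Of the exceptions to the overlap, chr16:81744700-81745370 had 8.86, 10.5 and 7.03 CPM with cisplatin, against 81.1, 33.5 and 49.3 CPM with oxaliplatin and 177, 88.9 and 93.5 CPM with DMSO, and oxaliplatin lay below DMSO there. The other, chr9:134735493-134735954, had 12.3, 14.7 and 12.2 CPM with cisplatin, against 77.4, 72.5 and 91.7 CPM with oxaliplatin and 60.8, 54.8 and 60.6 CPM with DMSO, and oxaliplatin lay above DMSO. Cisplatin was lowest at both. The remaining members were chr13:100215312-100215709, chr8:23154691-23155338, chr17:70399459-70400090 and chr10:76468066-76468481, with log2 differences of -2.65, -2.62, -2.62 and -2.59. At chr10:76468066-76468481, 2 DMSO libraries had no listed peak and the other had 33.4 CPM, near the 30.3, 33.3 and 29.2 CPM with oxaliplatin. None of the 12 was among the peaks split by list kind in both cytosol and polysomes. A wider rule, over 2-fold the same way in A549 polysomes alone, marked 799 tested peaks. Of the 12, chr5:159399611-159400027, chr8:23154691-23155338 and chr17:70399459-70400090 met it, higher in the short list. At chr8:23154691-23155338, polysomes with DMSO had 20.7 and 15 CPM in long lists and 273 CPM in the short one, which is replicate 3. In A549 cytosol with DMSO, where every list is short, replicate 3 also stood apart, with 6.51, 6.86 and 126 CPM in order of replicate. The part of list kind in these deficits was not tested.

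These ends lay far from the next tested peak upstream. On the same strand it was 134 to 1183 kb away (median 626 kb), over 100 kb in 12 of 12, whereas the 12 highest peaks had a median of 59 kb and 5 beyond that distance. Over all 15157 peaks with a tested peak upstream, the share beyond it was 40.1%. Across all tested peaks, the share called lower was 8.01% where the nearest tested peak upstream was under 1 kb away, 7.53% at 1 to 10 kb, 9.29% at 10 to 50 kb, 9.95% at 50 to 100 kb, 11.1% at 100 to 200 kb, 14.0% at 200 to 500 kb and 12.7% beyond that. The share called higher stayed between 11.2% and 13.1% over the same classes. A deficit in cisplatin was thus found more often after long empty stretches, and an excess about as often in each class. Levels were lower there too: the median CPM was 15.6 in the first class and 9.17 in the last. Within long lists, cisplatin was below DMSO in 11.4% of the first class, 18% of that at 200 to 500 kb and 14.7% of the last. Without an annotation, this distance is not a gene length, and peaks of a stretch need not belong to 1 gene.

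Width separated the directions further. Of 889 peaks of up to 100 bases, 25% were higher and 1.8% lower with cisplatin. Of 4208 peaks of 401 to 800 bases, 9.34% were higher and 15.6% lower, and of 702 peaks of 801 to 1600 bases, 10.8% and 19.1%. Narrow ends thus leaned to cisplatin and broad ones away from it, except for the 38 peaks over 1600 bases, of which 16 were higher and 3 lower. As ratios of mean CPM with 0.5 added and unlisted DMSO peaks as 0, the narrow class lay above DMSO in the median. The values were 0.46 log2 units with cisplatin and 0.16 with oxaliplatin. In long lists alone, cisplatin was above DMSO in 23.9% and below it in 5.45% of its peaks listed in all 9 H358 libraries. Width moves with level, since the median level of the narrow class was 5.74 CPM and that of the peaks of 401 to 800 bases 25.5 CPM. In the weakest of 5 equal classes by level, 400 peaks were higher and 33 lower, against 292 higher and 440 lower in the middle class. A peak had to be listed in all 6 libraries to be tested, which keeps the lowest values out of the weak classes, and the part of this in the shares was not tested.

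**Figure D4:**
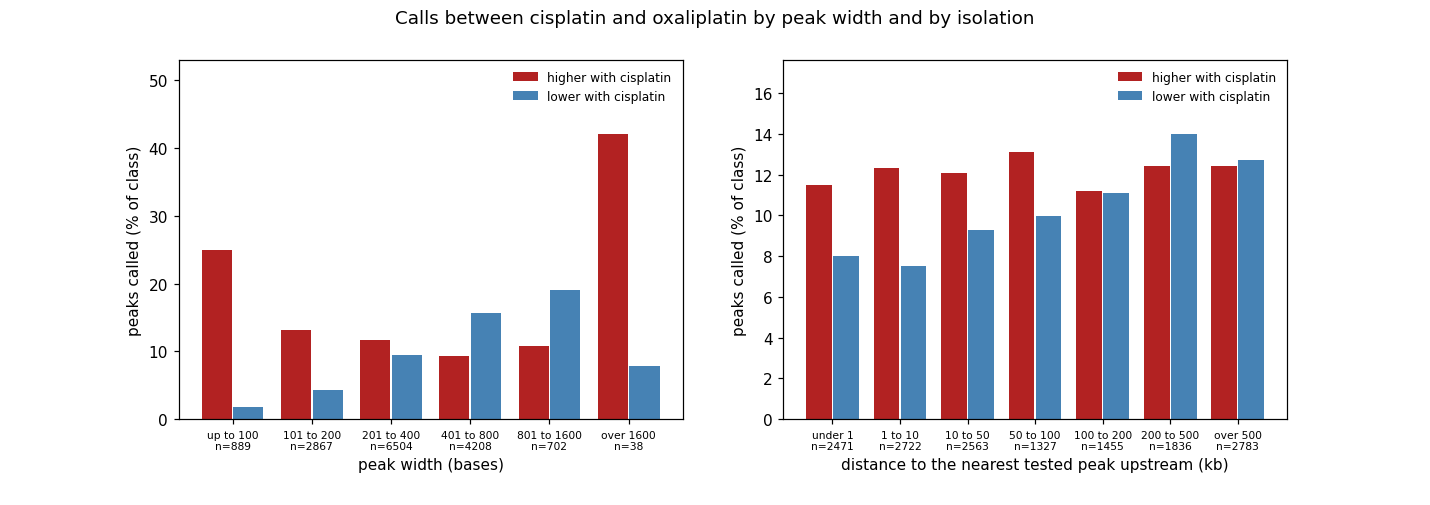
Percentage of tested peaks called higher (red) or lower (blue) with cisplatin than with oxaliplatin (y axis), by peak width in bases (left) and by the distance to the nearest tested peak upstream on the strand in kb (right), with the number of peaks under each class. The red bars fall from 25% to 9.34% over the first 4 widths while the blue bars rise; on the right the blue bars are lowest at 1 to 10 kb and tallest at 200 to 500 kb.

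Shares of calls by chromosome are given without a test. Chromosomes M and Y, with few tested peaks, apart, the share called higher with cisplatin ran from 7.08% on chromosome 12 to 15.7% on chromosome 17, and the share called lower from 5.29% on chromosome 19 to 13.7% on chromosome 8. Chromosome 19 had 149 peaks higher and 53 lower of 1002, and chromosome 12 had 55 higher and 93 lower of 777.

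The mitochondrial ends, which hold a large part of all counts, differed too. Mitochondrial DNA is transcribed from both strands into polycistronic RNA, and most of its messenger RNAs are polyadenylated. Mitochondrial peaks took 24.5, 26.1 and 22.3% of the counts in tested peaks with cisplatin, against 11.4, 13.7 and 10.9% with oxaliplatin and 10.9, 10.5 and 10.5% with DMSO. The lowest cisplatin library lay above the highest of the other groups, and the means were 24.3% ± 1.91 with cisplatin, 12% ± 1.52 with oxaliplatin and 10.6% ± 0.202 with DMSO (SD, n = 3 each). The exact two-sided permutation test between the drugs gave p = 0.1, the smallest that 3 against 3 allows, and 0.2 after adjustment over the 2 exact tests of library values. As a share of all listed counts, which the list kind affects, the means were 15.4% ± 0.942 with cisplatin, 11.2% ± 1.39 with oxaliplatin and 7.46% ± 0.199 with DMSO. Cisplatin stayed the highest group on either scale, with a gap 2.02-fold on the first and 1.38-fold on the second. Merging joined the mitochondrial peaks into long stretches, which sum many ends and are not single 3′ ends. The plus-strand stretch, from position 1 to 16571, the highest listed there, rose with cisplatin (log2 difference 1.55 ± 0.42, SE, adjusted p = 0.00906). The longer minus-strand stretch, 1666 to 16571, rose as well (1.30 ± 0.33, adjusted p = 0.00686). The short minus-strand stretch, 1 to 1602, did not pass the test (0.69 ± 0.35, adjusted p = 0.163). In bulk RNA, a change in the number of cells of a kind and a change in the RNA of each cell cannot be told apart.

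Among nuclear peaks, those with the largest gain and loss in CPM were looked up after the values were seen. The largest gain was at chr2:47562431-47562772 (plus strand), which had 6307, 9871 and 11115 CPM with cisplatin, against 1527, 2758 and 1814 CPM with oxaliplatin and 2043, 2691 and 3294 CPM with DMSO. This peak is also split by list kind in the A549 and A549R libraries, and cisplatin over DMSO was 1.79 log2 units within long lists. The next, chr11:10529432-10531831 (minus strand), had 6763, 9831 and 7201 CPM with cisplatin, against 1412, 1908 and 1163 CPM with oxaliplatin and 956, 949 and 777 CPM with DMSO (log2 difference 2.44 ± 0.30 (SE), adjusted p = 1.88e-06). There the cisplatin libraries stood apart and oxaliplatin lay above DMSO by 0.74 log2 units (adjusted p = 0.0763). Whether reads of chr11:10529432-10531831 could also be placed elsewhere, the mitochondrial genome included, was not checked. The largest loss was at chr17:39679787-39680255 (minus strand), which had 895, 905 and 906 CPM with cisplatin, against 2442, 1658 and 2096 CPM with oxaliplatin and 2120, 1590 and 2012 CPM with DMSO (log2 difference -1.16 ± 0.24 (SE), adjusted p = 0.00124). It met the rule for a split by list kind, but among the short lists only those of replicate 3 were high. In A549 cytosol with DMSO, replicate 3 had 43.5 CPM and the other replicates had no listing. With cisplatin, replicate 3 had 74.2 CPM and replicate 2 had 1.49 CPM. Within long H358 lists cisplatin over DMSO was -1.05 log2 units. The peak chr12:53346469-53346699 (plus strand) had 609, 704 and 615 CPM with cisplatin, against 1503, 922 and 1444 CPM with oxaliplatin and 1247, 1076 and 1315 CPM with DMSO (log2 difference -0.97 ± 0.24 (SE), adjusted p = 0.00567). It was not split by list kind in both cytosol and polysomes, but it met the wider rule of A549 polysomes alone. Polysomes with DMSO had 27088.7 and 24932.5 CPM in long lists and 5368 CPM in the short one. Oxaliplatin overlapped DMSO in both losses.

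The series asks how internal ends change relative to the end of the last exon. Without an annotation, each peak was set against the strongest stronger peak within 50 kb downstream on its strand, which gave 5557 pairs that need not lie in 1 gene. The share of the upstream peak was higher with cisplatin in 315 pairs and lower in 271, which is 10.5% of pairs (5.67% higher and 4.88% lower). Without oxaliplatin replicate 3 the calls numbered 189 higher and 177 lower. The median log2 ratio of the upstream to the downstream peak was -2.53, -2.70 and -2.55 in the cisplatin libraries, against -2.61, -2.75 and -2.78 in the oxaliplatin libraries. The ranges overlapped, and the difference of the means, 0.12, had p = 0.2 in the exact two-sided permutation test. Calls grew with distance, from 2.86% of 734 pairs within 1 kb to 18.7% of 1593 at 20 to 50 kb. The reverse arrangement, a weaker peak downstream of the stronger one, gave 4135 pairs, of which the weaker peak gained share with cisplatin in 392 (9.48%) and lost it in 241 (5.83%), 15.3% in all.

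The 6 pairs with the largest gain were led by upstream ends that were far higher with cisplatin. The upstream peak chr20:2446029-2446478 held 32.3, 43 and 40.6% of the counts of the pair with cisplatin, against 0.711, 0.68 and 0.837% with oxaliplatin and 11.5, 16 and 13.9% with DMSO. Its partner, 3861 bases downstream at chr20:2442168-2442589, averaged 424 CPM with cisplatin and 499 CPM with oxaliplatin and was not called (adjusted p = 0.554). The upstream peak is one of those split by list kind, and within long lists its share was still higher with cisplatin than with DMSO in every library. The upstream peak chr17:79892819-79894400, 47113 bases from its partner, held 19.4, 31.4 and 21.8% of the counts of the pair with cisplatin, against 0.569, 0.303 and 0.905% with oxaliplatin and 0.485, 0.816 and 1.54% with DMSO. The upstream peak chr19:1021497-1021633, 17457 bases from its partner, held 25.8, 40.2 and 42.6% of the counts of the pair with cisplatin, against 0.782, 2.64 and 1.26% with oxaliplatin and 0.383 and 1.02% in the 2 DMSO libraries that list it. In this pair of cases DMSO lay with oxaliplatin. The upstream peak chr1:36850012-36850264, 44791 bases from its partner, held 58.6, 85.3 and 76.3% of the counts of the pair with cisplatin, against 6.15, 22.2 and 6.79% with oxaliplatin and 4.74, 5.18 and 6.77% with DMSO. Here both ends moved, the upstream one up and the downstream one down, with log2 differences of 3.20 and -1.40, and the upstream end became the larger of the pair with cisplatin. At chr17:25601157-25601558 and chr6:35436724-35437304, both split by list kind, the cisplatin and DMSO ranges overlapped. The first held 45.7, 72 and 59.1% of the counts of the pair with cisplatin, against 2.8, 3.29 and 4.55% with oxaliplatin and 51.2, 62.2 and 64.2% with DMSO. The second held 23.5, 18 and 23.7% of the counts of the pair with cisplatin, against 1.06, 0.898 and 1.17% with oxaliplatin and 20.3, 26.5 and 21.6% with DMSO.

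In all 6 pairs with the largest loss the downstream peak was one of those split by list kind. The partner chr17:41399657-41401090 served 2 of these pairs and chr4:106407066-106407554 served 3. With the partner chr17:41399657-41401090, the upstream peak chr17:41363042-41363707 held 5.26, 5.22 and 3.96% of the counts of the pair with cisplatin, against 88.6, 92.6 and 83.3% with oxaliplatin and 36.9, 41.2 and 19.3% with DMSO. With the partner chr4:106407066-106407554, the upstream peak chr4:106406209-106406391 held 4.93, 4.46 and 3.29% of the counts of the pair with cisplatin, against 78.6, 76.5 and 78.7% with oxaliplatin and 5.46, 5.83 and 5.14% with DMSO. In the first, DMSO stood between the drugs, and in the second it lay with cisplatin. Among pairs with neither member split by list kind, the largest losses went with a downstream end that was near the listing limit without cisplatin. The upstream peak chr19:7537068-7537377 held 13.2, 10.1 and 4.29% of the counts of the pair with cisplatin, against 89.8, 70.0 and 83.3% with oxaliplatin and 86.8, 93.6 and 87.9% with DMSO. Its own level was 6.03 CPM with cisplatin and 8.55 CPM with oxaliplatin (adjusted p = 0.412), while the peak 26666 bases downstream, chr19:7563981-7564043, averaged 60.9 CPM with cisplatin, 1.88 CPM with oxaliplatin and 1.7 CPM with DMSO. A like case, the upstream peak chr19:863031-863723 with its partner chr19:893484-893597, held 31.8, 21.2 and 19.5% of the counts of the pair with cisplatin, against 95.8, 90.8 and 90.5% with oxaliplatin and 95.2, 95 and 96% with DMSO.

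**Figure D5:**
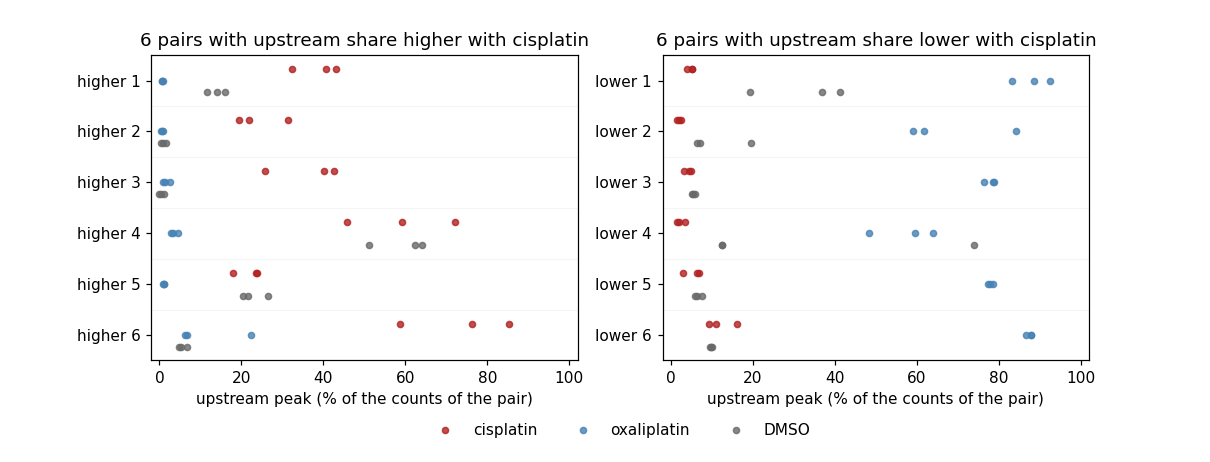
Share of the upstream peak in the counts of its pair (x axis, %) for the 6 pairs with the largest gain (left) and the 6 with the largest loss (right) with cisplatin, in order of size from top to bottom; each point is 1 library, with cisplatin in red, oxaliplatin in blue and DMSO in grey. Cisplatin and oxaliplatin do not overlap in any row, and in the rows ranked 3, 5 and 6 on the right DMSO lies with cisplatin.

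Some ends moved alike with both drugs. Of the 14550 peaks listed in all 9 H358 libraries, 714 differed between oxaliplatin and DMSO at an adjusted p under 0.05. In 177 of these, cisplatin differed from DMSO the same way and the 95% interval of the difference between the drugs lay within 2-fold. These 177 are described without a test, since these values chose them. The peak chr5:1461539-1462140 (minus strand) had 19, 16.3 and 9.84 CPM with cisplatin, against 24.6, 11.5 and 14.2 CPM with oxaliplatin and 132, 102 and 96.9 CPM with DMSO. Both drugs lay far below DMSO, and they differed from each other by -0.11 log2 units (95% interval -0.79 to 0.58). The abundant peak chr14:24114300-24114854 (plus strand) had 369, 461 and 318 CPM with cisplatin, against 525, 412 and 586 CPM with oxaliplatin and 4293, 2667 and 2592 CPM with DMSO. The difference between the drugs was -0.38 (95% interval -0.85 to 0.10), where cisplatin over DMSO was -3.03 and oxaliplatin over DMSO -2.65 log2 units. In the other direction, chr19:55896664-55897206 (minus strand) had 4.68, 4.2 and 7.97 CPM with cisplatin, against 6.16, 7.29 and 6.13 CPM with oxaliplatin and 0.905, 1.01 and 1.28 CPM with DMSO, with a difference between the drugs of -0.20 (95% interval -0.94 to 0.54). The peak chr9:123666230-123666660 (minus strand) had 14, 10.5 and 9.37 CPM with cisplatin, against 9.33, 10.4 and 22.6 CPM with oxaliplatin and 3.77, 2.46 and 2.83 CPM with DMSO, with a difference of -0.26 (95% interval -0.99 to 0.46). Both drugs lay above DMSO at these ends, without overlap.

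At some ends oxaliplatin was the high group. Of the 1550 peaks called lower with cisplatin than with oxaliplatin, 1534 were listed in all 9 H358 libraries, and 32 of these (2.09%) also had oxaliplatin above DMSO at an adjusted p under 0.05, against 1.2% of all peaks listed there. Both comparisons share the oxaliplatin libraries, which raises this share. The peak chr1:209849218-209849741 (plus strand) had 6.89, 3.15 and 3.75 CPM with cisplatin, against 13.4, 20.2 and 25 CPM with oxaliplatin and 3.32, 3.32 and 3.6 CPM with DMSO. It lay 2.52 log2 units above DMSO with oxaliplatin, and the cisplatin value over DMSO was 0.55 (adjusted p = 0.334). The peak chr3:98701302-98701885 (plus strand) had 20.7, 7.87 and 9.84 CPM with cisplatin, against 40.3, 91 and 57.7 CPM with oxaliplatin and 11.9, 9.1 and 21.1 CPM with DMSO (log2 difference -2.20 ± 0.34 (SE), adjusted p = 5.30e-05). Oxaliplatin was the high group without overlap at both ends, and cisplatin overlapped DMSO at both. The peak chr7:112115479-112116264 (plus strand) had 25.8, 26.2 and 26.7 CPM with cisplatin, against 54.2, 74.3 and 56.4 CPM with oxaliplatin and 10.9, 23.4 and 17.2 CPM with DMSO. Oxaliplatin against DMSO crosses the kinds of list.

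The peaks that separated the drugs in H358 were then followed in other libraries, those of A549 and A549R cytosol, where cisplatin and DMSO have lists of the same kind within each line. In A549, 2.23% of the 12493 tested peaks listed there were higher and 2.42% lower with cisplatin than with DMSO. Of the H358 peaks higher with cisplatin than with oxaliplatin, 1286 were listed there, and 5.52% were higher and 0.855% lower. Of those lower with cisplatin, 1333 were listed, and 0.6% were higher and 7.88% lower. Each group thus held more calls in its own direction than in the other. The median log2 value of cisplatin over DMSO in A549 was 0.27 in the first group, -0.36 in the second and 0.02 in the peaks not called in H358. Ends that were lower with cisplatin in H358 therefore leaned to lower values in A549 as well, with 78.2% of them below 0, against 49.5% of all tested peaks listed there. The overlap was small as a share of the H358 calls and larger as a share of the A549 calls, since 34.8% of the A549 peaks lower with cisplatin and 25.5% of those higher were called the same way in H358, as were 10.7% (lower) and 10.3% (higher) of all tested peaks listed in A549. In A549R, where 1.59% of 11702 peaks were higher and 1.2% lower, the H358 groups were called higher in 3.08% and lower in 0.416% (higher in H358), and higher in 0.675% and lower in 4.27% (lower in H358). The share of A549R calls also called in H358 was 40.7% for lower and 19.9% for higher peaks, beside 11.4% and 10.3% of all tested peaks listed in A549R.

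The 12 ends with the largest deficit and the 12 with the largest excess were looked up in the same libraries. Unlisted peaks were taken as 0 CPM in these values, although an absence from a short list is not a count of 0. Some lower means therefore rest in part on absences. At chr5:159399611-159400027, a single A549 cytosol library with cisplatin had 1.5 CPM and the others had no listing. All 12 of the ends with a deficit had a lower mean with cisplatin than with DMSO in A549 cytosol, in A549R cytosol and in A549 polysomes, without overlap of libraries in 8, 9 and 9 of 12. Over all tested peaks listed there, the mean was lower with cisplatin in 49.4%, 44.9% and 46.7%, and lower without overlap in 13.4%, 10.6% and 9.67%. At chr8:118811599-118812116, A549 cytosol had 4.16 ± 3.23 CPM with cisplatin and 26.1 ± 11.9 CPM with DMSO (SD, n = 3 each). At chr10:76468066-76468481, A549 cytosol had 3.95 ± 1.53 CPM with cisplatin and 25.5 ± 2.58 CPM with DMSO (SD, n = 3 each). Of the 12 with an excess, 7 were listed in any A549 cytosol library, with 4 higher and 3 lower in the mean with cisplatin. In A549R cytosol 9 were listed, 3 of them higher and 6 lower in the mean, and in A549 polysomes 6 were listed, 1 higher and 5 lower. The means of the 7 listed in A549 cytosol were low, at most 6.73 CPM. The higher means at chr20:26188996-26189627 and chr1:228761629-228761812 there each rested on a single library with 1.06 CPM.

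Peaks listed with 1 drug alone were described without a test. All 3 oxaliplatin lists and no cisplatin list held 3723 merged peaks, most with few reads (median 9), and 128 had at least 20 reads in each oxaliplatin library. Of the 3723, 51.4% were listed in all 3 DMSO libraries. The strongest, chr17:46768522-46768677 on the minus strand, had 165, 180 and 131 reads with oxaliplatin and was listed neither with cisplatin nor with DMSO. The peak chr5:37752584-37752774 on the plus strand had no listing with cisplatin, against 73, 81 and 83 reads with oxaliplatin and 80, 106 and 44 with DMSO. The peak chr5:80715715-80716052 on the minus strand had no listing with cisplatin, against 98, 88 and 71 reads with oxaliplatin and 114, 134 and 59 with DMSO. These ends were present with oxaliplatin at about the DMSO count and absent from the longer cisplatin lists. The cisplatin lists skip numbers too, so an absence there is no proof of a low level. In the other direction, 17737 peaks stood in all 3 cisplatin lists and in no oxaliplatin list, which the short oxaliplatin lists leave unreadable. Of these, 34 had at least 100 reads in each cisplatin library and were absent from the DMSO lists as well, which are of the long kind. The strongest were chr14:35037833-35038038 on the minus strand, with 5882, 4511 and 4448 reads with cisplatin, and chr9:33076860-33077613 on the plus strand, with 2949, 2257 and 1883. The first of these was also listed with 6914 reads in 1 A549R library with DMSO and not listed in the other 2 of that group, so that absence from a long list is no sign of a low level either.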

How the data were processed

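Fragments of poly(A)+ RNA were primed with an anchored oligo-dT, amplified by PCR and sequenced from 1 end, per the labels. Among the tools in the submitters' processing notes are bedtools 2.17.0, SAMtools 1.1 and Bowtie2 2.2.5. The sources used here do not give their settings or the peak caller. The deposited values are raw read counts per peak, not normalized by the authors, and the smallest listed count is 5. Although those notes list mm9, a mouse build, the listed positions (up to 249144530 on chromosome 1) were read as human hg19.

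Peaks overlapping by at least 1 base on a strand were merged over the 6 lists. Counts of peaks listed in all 6 were tested with edgeR 4.0.16 (quasi-likelihood, TMM factors and library sizes from the tested peaks, Benjamini-Hochberg adjustment over all 15208, threshold 0.05), and pairs by the interaction of peak and drug, with library as a factor. Drug against DMSO used the same test over the 9 H358 libraries. SEs are the log2 difference over the square root of F. DESeq2 1.42.0 was an alternative. On simulated data the peak test recovered 93% of peaks changed by 2 log2 units and 29% of those changed by 1, with 6.87% of calls false, and the pair test 74% and 6%, with 2.44% false. The mitochondrial share and the median pair ratio were compared with exact permutation tests in scipy 1.17.1. Named peaks are the 12 with the largest log2 difference in each direction with an adjusted p under 0.05, drugs not overlapping and a mean of at least 10 CPM in the higher drug; named pairs are the 6 largest in each direction by the same test. Peaks split by list kind differed over 2-fold, the same way, between long and short lists in every such comparison of A549R with A549 cytosol and within A549 polysomes. Unlisted peaks counted as 0 in these comparisons, and 0.5 CPM was added. The short side of the polysome comparison was replicate 3 alone in each treatment, so list kind and replicate coincide in it.

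The members and lists were chosen with earlier results of these data known. Tests per gene, gene lists, cell markers, gene lengths and sequences were not analysed here, since no annotation or genome of hg19 was used. Depth limits precision: the median half-width of the 95% interval was 0.68 log2 units, covering the spread between libraries. Reads carry no molecular identifiers.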

Additional observations from a re-analysis of the deposited data

Results flagged for a closer look

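At a pair of named ends every cisplatin library lay above every DMSO library in H358 and below every DMSO library in another line. Neither passed the test in that other line, and the difference between the lines was not tested. At chr20:2446029-2446478 on the minus strand, every H358 cisplatin library (187, 329 and 302 CPM) lay above every H358 DMSO library (74.4, 100.2 and 94.6 CPM), whereas in A549 cytosol every cisplatin library lay below every DMSO library, with 5.07 ± 0.683 CPM with cisplatin and 6.73 ± 1.26 CPM with DMSO (SD, n = 3 each), a log2 ratio of -0.38 after adding 0.5 CPM (edgeR adjusted p = 0.46). At chr17:79892819-79894400 on the minus strand, every H358 cisplatin library (86.9, 163 and 83.9 CPM) lay above every H358 DMSO library (2.41, 3.9 and 6.42 CPM), whereas A549R cytosol had 1.89 ± 0.583 CPM with cisplatin and 5.22 ± 1.56 CPM with DMSO (SD, n = 3 each), a log2 ratio of -1.26 on the same scale (edgeR adjusted p = 0.0699). The H358 RNA came from whole cells and the other from cytosol.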

How the results depend on the processing

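The 3397 peak calls became 30306 of 102103 (26867 higher, 3439 lower) when every merged peak was tested with absent peaks as 0, and 9464 (555 higher, 8909 lower) with library sizes from all listed counts and no TMM factors. The first counts the absences of the short oxaliplatin lists as 0 by its construction; for the second, the parts of the listed totals and of the dropped factors were not tested. The 586 pair calls became 341 of 4383 with partners within 20 kb, where fewer pairs were tested. Leaving out 1 library gave 2302 to 3000 peak calls and 366 to 513 pair calls, a difference in mitochondrial share of 11.4 to 13.3 percentage points and in the median pair ratio of 0.09 to 0.18. With the replicate block there were 4059 peak and 821 pair calls, and sign-flip tests of both library values gave p = 0.25, the smallest that 3 pairs allow; same-numbered libraries correlated at 0.29, 0.12 and -0.10, so the numbers were not taken as pairs. DESeq2 gave 2912 peak and 461 pair calls. Counts under the other size factors, count minimum, peak, mitochondrial, list-kind and 9-library alternatives stayed within 1.5 times, between 2683 and 3415 peaks. Removing the peaks split by list kind, an alternative chosen after seeing the data, left 3368 peak and 570 pair calls. The 24 named peaks and 12 named pairs kept their direction and call in all 386 and 132 recomputed values. Tests per gene could not be run without an hg19 annotation.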
